A study of Mus musculus with 36 samples.

Results

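The aryl hydrocarbon receptor (AHR) and genes of its pathway were followed in mouse lung and liver after exposure to ambient particulate matter (PM). The set holds 8 genes, chosen by name and found in every file among 20098 genes: Ahr, the receptor, Arnt, its DNA-binding partner, Ahrr, the repressor of the receptor, and 5 targets, Cyp1a1, Cyp1a2, Cyp1b1, Tiparp and Aldh3a1. The rule that chose them uses no measured value, but it was set with earlier results of these data known. RNA from both tissues was sequenced in 36 libraries, 18 a tissue, in 6 groups of 3.

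All mice were male wild-type C57BL/6J. Normal-diet mice (ND) ate a standard purified diet, mice with diet-induced obesity (DIO) a 45% high-fat diet, and mice with type 1 diabetes (T1D) the normal diet after 50 mg/kg of streptozotocin, a toxin of pancreatic beta cells, on 5 consecutive days. At 14 weeks of age each state was divided between filtered air (NDC, DIOC, T1DC) and unfiltered ambient air carrying PM (NDE, DIOE, T1DE) for 4 weeks, in cages of 5 mice. DIO differed from ND by diet and T1D from ND by the toxin, which can itself reach other tissues. Each library is named here by its group and replicate, so that NDC1 is replicate 1 of NDC. The sources do not state whether a library is 1 mouse or a pool, or whether lung and liver came from the same mice, so that p-values measure the spread between these libraries. RNA came from pieces of whole tissue, in which fewer cells of a type and less RNA per cell cannot be told apart.

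The receptor is a ligand-activated transcription factor of the cytosol, held there by heat shock protein 90 and p23. Planar aromatic hydrocarbons, dioxins and tryptophan metabolites bind it, and the complex then enters the nucleus, pairs with ARNT and binds DNA at a core of GCGTG. CYP1A1, CYP1A2 and CYP1B1 are cytochrome P450 enzymes that oxidize such hydrocarbons, of which combustion particles carry many. AHRR and TIPARP limit the response, the latter by ADP-ribosylation of the receptor, and ALDH3A1 oxidizes aldehydes.

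The sequence just upstream of the start site is shown for 4 genes, because 3 of them carry the core and Cyp1a2, the member with the highest level in liver, does not. Windows were the 250 bases before the RefSeq start site in GRCm38.p6, printed 5′ to 3′ on the gene's own strand, and capitals mark GCGTG or its reverse complement CACGC, searched on both strands.
Cyp1a1, chr9:57697363-57697612, plus strand: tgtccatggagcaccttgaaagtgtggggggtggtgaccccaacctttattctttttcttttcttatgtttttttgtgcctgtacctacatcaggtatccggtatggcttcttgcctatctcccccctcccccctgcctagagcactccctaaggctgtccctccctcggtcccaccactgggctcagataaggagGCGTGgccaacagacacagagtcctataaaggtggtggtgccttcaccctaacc
Cyp1a2, chr9:57683656-57683905, minus strand: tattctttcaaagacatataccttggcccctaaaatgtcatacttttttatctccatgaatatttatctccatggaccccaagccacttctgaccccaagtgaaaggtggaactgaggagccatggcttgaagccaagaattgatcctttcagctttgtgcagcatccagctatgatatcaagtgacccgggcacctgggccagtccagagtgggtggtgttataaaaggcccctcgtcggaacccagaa
Cyp1b1, chr17:79715062-79715311, minus strand: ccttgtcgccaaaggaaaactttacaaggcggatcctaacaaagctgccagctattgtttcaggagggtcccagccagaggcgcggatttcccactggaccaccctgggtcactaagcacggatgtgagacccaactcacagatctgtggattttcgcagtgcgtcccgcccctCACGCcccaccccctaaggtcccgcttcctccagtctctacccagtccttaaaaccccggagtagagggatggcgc
Ahrr, chr13:74292332-74292581, minus strand: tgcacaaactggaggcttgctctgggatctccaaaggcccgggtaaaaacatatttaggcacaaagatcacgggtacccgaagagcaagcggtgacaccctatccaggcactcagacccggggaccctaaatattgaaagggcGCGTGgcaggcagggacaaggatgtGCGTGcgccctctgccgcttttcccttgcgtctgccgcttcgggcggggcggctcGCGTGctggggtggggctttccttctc

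In GRCm38.p6 Cyp1a1 (chromosome 9, 57687928 to 57703824) and Cyp1a2 (57676937 to 57683655) are neighbours. Ahr lies on chromosome 12 (35497979 to 35534989), Arnt (95434367 to 95497240) and Tiparp (65528447 to 65555518) on chromosome 3, Ahrr on 13 (74211118 to 74292331), Cyp1b1 on 17 (79706940 to 79715061) and Aldh3a1 on 11 (61208510 to 61218418). Each level is that of a whole gene. RefSeq windows were matched for 6 of the 8 members, and 5 of the 6 held the core, against 28.2% of 32851 mouse windows of the same length. It began 54 bases before the start site in Cyp1a1, 76 in Cyp1b1, 29 in Arnt and 170 in Tiparp, and Ahrr held it at 107, 82 and 27 bases before its start site. A match of letters is a description only, and the known enhancer elements of Cyp1a1 lie farther upstream than these windows.

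Gene levels were compared as FPKM, fragments scaled to transcript length and to the total of mapped fragments, and tested on log2(FPKM + 1) with limma, so that a fold is one of FPKM + 1 and understates the change of low genes. A gene was called at an adjusted p below 0.05 (Benjamini-Hochberg over all genes tested) and a fold above 1.5. Of the members, 7 in lung and 4 in liver reached 1 FPKM in at least 3 libraries and were tested. Estimated depth was 16100000 to 20900000 reads in lung and 17600000 to 20000000 in liver, at which 1 read of Cyp1a1 was worth about 0.02 FPKM.

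Markers of other tissues varied between libraries. The summed level of 10 squamous epithelium genes (keratins and cornified envelope genes) was 6.73 to 16.28 FPKM in 8 lung libraries and 647 to 3055 FPKM in the other 10, and it ranged from 7.35 to 1542 FPKM for 10 skeletal muscle genes. Albumin, a hepatocyte gene, reached 319 FPKM in DIOC3 and 169 FPKM in DIOE1 of the lung. In liver, 6 alveolar type 2 genes of the lung summed to 33.63 FPKM in DIOE1, 18.8 FPKM in NDC3 and 14.71 FPKM in NDC1, and to at most 5.42 FPKM elsewhere. The tissue labels matched their markers, since 6 alveolar type 2 genes summed to 15186 FPKM or more in every lung library and 10 hepatocyte genes to 51489 FPKM or more in every liver library. Diabetic livers other than T1DC2 stood apart at the low end of the scale. Of 20098 genes, 3386 to 4803 were listed at 0 in T1D, against 4891 to 5271 in ND and 4717 to 5415 in DIO. The median gene was at 1.14 to 1.41 FPKM in T1D, 0.88 to 1.17 FPKM in ND and 0.74 to 1.08 FPKM in DIO. T1DC2 had 4803 genes at 0, within the range of DIO, and a median of 1.14 FPKM, within that of ND.

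The pathway's genes differed in level between lung and liver. Aldh3a1 averaged 51.1 FPKM in lung and 0.0322 FPKM in liver, whereas Cyp1a2 averaged 176 FPKM in liver and 0.47 FPKM in lung. Cyp1a1 (9.37 against 0.286 FPKM), Cyp1b1 (9.86 against 0.358 FPKM) and Tiparp (12.3 against 1.59 FPKM) were higher in lung. Over the 18 libraries of each tissue, Cyp1a1 spanned 4 to 22.93 FPKM in lung and 0.04 to 0.77 FPKM in liver. Cyp1b1 spanned 3.4 to 15.17 and 0.14 to 0.92 FPKM, and Tiparp 9.96 to 15.38 and 0.88 to 4.63 FPKM. Differences of lung minus liver on the log2 scale were 5.47 for Aldh3a1 (SE 0.13), -6.98 for Cyp1a2 (SE 0.12), 2.92 for Cyp1a1 (SE 0.11), 2.94 for Cyp1b1 (SE 0.10) and 2.40 for Tiparp (SE 0.07). All 7 tested members were called with limma, beside 79% of the 14384 genes tested. Aldh3a1, Cyp1a1 and Cyp1b1 stayed below 1 FPKM in every liver library and passed the filter through lung alone. The filter thus favoured their direction, and their calls are only a description of levels.

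**Figure D1:**
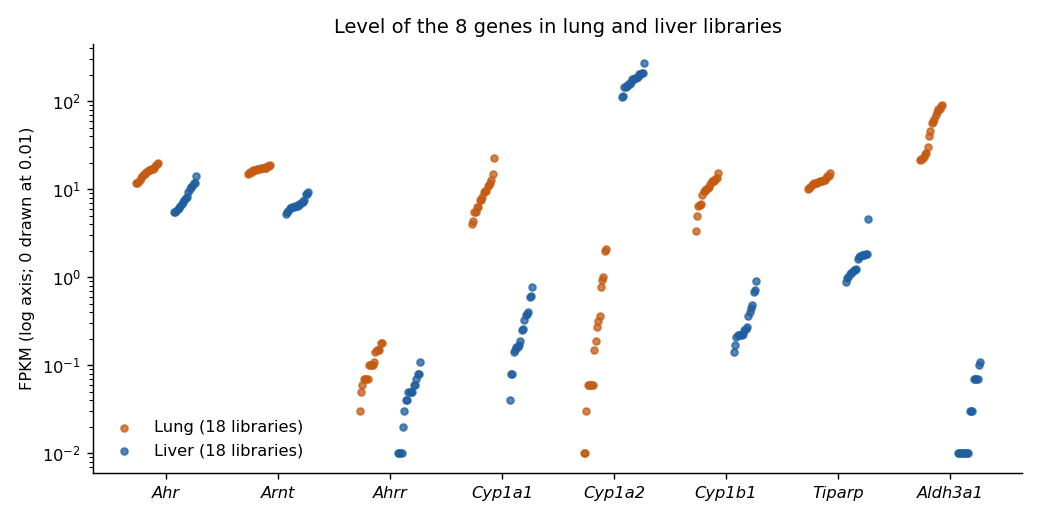
FPKM of the 8 genes on a log axis, each point 1 library and 18 libraries a tissue, sorted by level, with 0 drawn at 0.01. Aldh3a1 sat at 21.39 to 89.9 FPKM in lung and at 0.11 FPKM or less in liver, and Cyp1a2 at 112.92 FPKM or more in liver and at 2.12 FPKM or less in lung.

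Ahr (15.5 FPKM in lung, 8.45 in liver) and Arnt (16.9 and 6.84 FPKM) were also called, but the median gene stood 1.01 higher in lung on the same log2 scale. Ahr differed by 0.84 (SE 0.07) as deposited, by -0.27 after median-ratio scaling and by -0.09 after quantile scaling, so that its direction turned with the scaling. Arnt differed by 1.21 (SE 0.04), 0.10 and 0.26. The calls of the other 5 members kept their direction under both scalings. Ahrr lay at 0.03 to 0.18 FPKM in lung and at 0 to 0.11 FPKM in liver, too low to test.

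In the lung, PM exposure changed no member past the call in ND, DIO or T1D mice or over the 3 states. Of the 7 members tested with limma, 1 had an unadjusted p below 0.05 in ND (Cyp1b1), 0 in DIO, 1 in T1D (Cyp1a2) and 1 over the 3 states (Cyp1b1). Counts at an unadjusted p, here and below, are descriptive, since the share of all genes at that cut is not given. Among all 13973 genes tested, 0% were called for PM in ND, 0% in DIO, 0.165% in T1D and 0% over the 3 states. The median difference of the 7 members was -0.06 in ND, 0.11 in DIO and -0.02 in T1D, beside -0.04 in ND and less than 0.01 in size in DIO and T1D over all genes tested. No member was called for a difference of PM effects between states, where 0 to 0.00716% of genes were.

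Ahr in the lung was 17.27, 16.87 and 18.19 FPKM in NDC and 13.37, 15.53 and 19.27 FPKM in NDE. It was 16.58, 16.79 and 14.88 FPKM in DIOC and 14.19, 12.85 and 16.70 FPKM in DIOE, and 14.96, 16.15 and 12.16 FPKM in T1DC and 20.12, 11.75 and 11.86 FPKM in T1DE. The groups of filtered air and PM overlapped in every state, with NDE3 and T1DE1 the highest libraries. Over the 3 states PM differed from filtered air by -0.09 (95% interval -0.31 to 0.12, adjusted p = 0.923 in limma).

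Arnt, which varied least among the tested members relative to its mean, ran from 15.04 FPKM in T1DE2 to 18.88 FPKM in T1DC1. It was 18.88, 17.58 and 17.26 FPKM in T1DC and 16.55, 15.04 and 16.81 FPKM in T1DE, which did not overlap, with a difference of -0.14 (SE 0.08, adjusted p = 0.498 in limma). In ND it was 16.55, 17.24 and 18.61 FPKM in filtered air and 15.67, 17.26 and 17.20 FPKM upon PM exposure, and in DIO 18.21, 17.20 and 15.35 FPKM and 16.70, 15.74 and 17.22 FPKM. Receptor and partner were thus about level in lung, with a ratio of Ahr to Arnt of 0.705 to 1.22 and a median of 0.915. Ahrr stayed at 0.18 FPKM or below in every lung library, with a highest level of 0.18 FPKM in NDC, 0.18 FPKM in NDE, 0.14 FPKM in DIOC, 0.11 FPKM in DIOE, 0.15 FPKM in T1DC and 0.10 FPKM in T1DE.

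Cyp1a1, the most used readout of receptor activity, was 7.53, 4.33 and 11.28 FPKM in NDC and 12.77, 8.24 and 6.31 FPKM in NDE. In obese mice it was 4, 5.57 and 7.65 FPKM in DIOC and 6.35, 5.51 and 9.61 FPKM in DIOE. Diabetic lungs held 9.44, 9.21 and 22.93 FPKM in T1DC and 15.02, 10.93 and 11.92 FPKM in T1DE. The PM groups overlapped their controls in every state, and the highest of all 18 libraries breathed filtered air. The PM difference was 0.25 in ND (95% interval -0.53 to 1.02), 0.28 in DIO (-0.50 to 1.05) and -0.02 in T1D (-0.79 to 0.76), intervals that hold a fold of 1.5 upward in each state and downward in T1D.

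Cyp1a1 had its highest lung levels in diabetic mice, without passing the test over all genes. The 6 diabetic libraries spanned 9.21 to 22.93 FPKM and the 6 obese libraries 4 to 9.61 FPKM, so that only DIOE3 entered the diabetic range. T1D minus DIO was 0.91 over both airs (SE 0.26, adjusted p = 0.0833 in limma, 0.479% of genes called), 1.06 in filtered air (adjusted p = 0.47, 0.0286% called) and 0.76 under PM (adjusted p = 0.281, 0.544% called). In each air the T1D libraries lay above the DIO libraries without overlap. Against ND the difference was 0.60 over both airs (adjusted p = 0.216, 0.558% of genes called), with overlapping libraries.

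**Figure D2:**
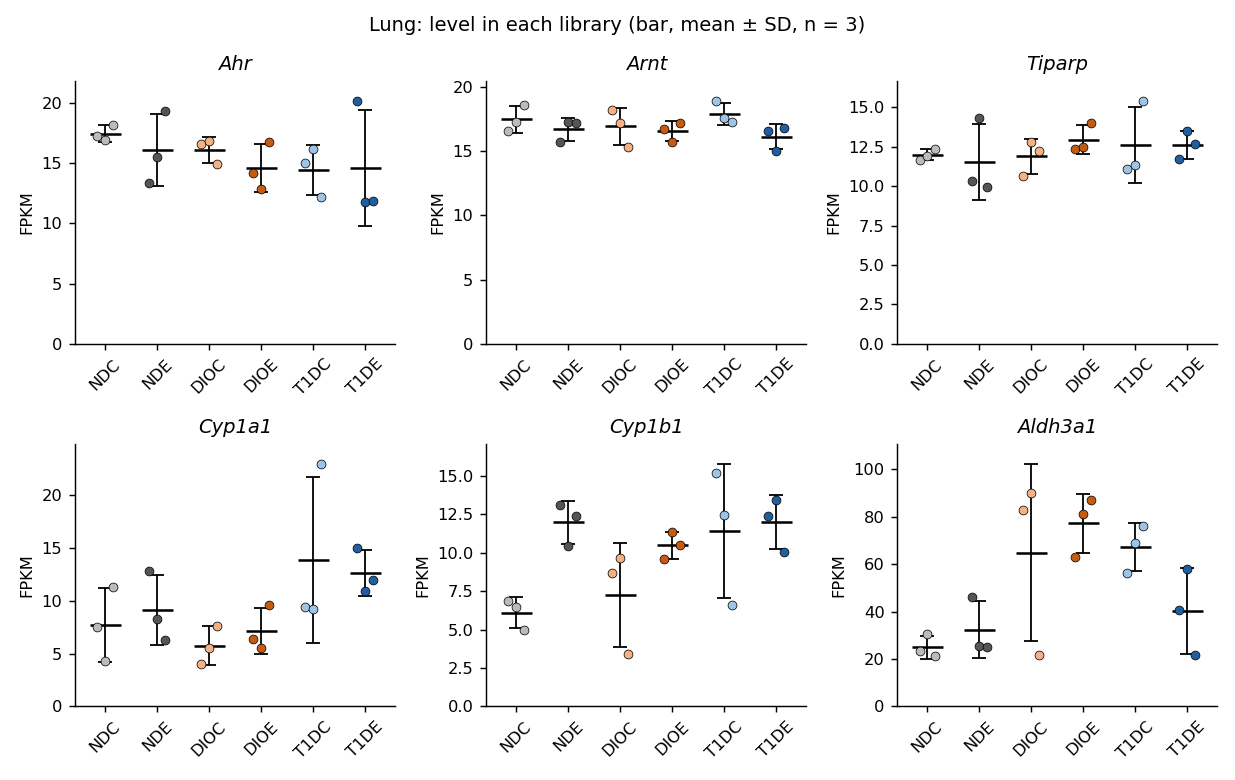
FPKM of 6 genes in lung, each point 1 library, with the mean and SD of 3 libraries a group. Cyp1b1 sat at 10.41 FPKM or more in NDE and at 6.86 FPKM or less in NDC, and Aldh3a1 spread from 21.87 to 89.9 FPKM within DIOC.

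Cyp1b1, which oxidizes polycyclic hydrocarbons and is found largely in mesenchymal cells, had the smallest p of the members for PM in ND lung and over the 3 states. It was 6.86, 6.48 and 4.95 FPKM in NDC and 13.11, 10.41 and 12.42 FPKM in NDE, without overlap, a difference of 0.88 (SE 0.30, adjusted p = 1 in limma). In obese mice it was 8.65, 9.68 and 3.40 FPKM in DIOC and 9.56, 11.34 and 10.53 FPKM in DIOE, which overlapped. Diabetic mice had 15.17, 12.43 and 6.62 FPKM in T1DC and 12.42, 13.45 and 10.03 FPKM in T1DE. PM libraries of all states lay between 9.56 and 13.45 FPKM, inside the range of 3.4 to 15.17 FPKM in filtered air. Over the 3 states the difference was 0.53 (SE 0.17, adjusted p = 0.786 in limma).

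Tiparp, whose RNA follows receptor activation quickly, did not separate the airs in lung. It was 11.66, 11.91 and 12.35 FPKM in NDC and 10.33, 14.29 and 9.96 FPKM in NDE. The remaining groups were 10.65, 12.80 and 12.22 FPKM in DIOC, 12.33, 12.48 and 14 FPKM in DIOE, 11.09, 11.34 and 15.38 FPKM in T1DC and 11.73, 13.50 and 12.67 FPKM in T1DE. Over the 3 states PM differed by 0.02 (95% interval -0.14 to 0.18, adjusted p = 0.976 in limma), an interval narrower than the fold of 1.5 asked for a call. About 4.04% of the 50-base stretches of Tiparp also occur in an overlapping pseudogene.

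Cyp1a2 was low in lung and uneven between its libraries. It was 0.27, 0.06 and 0.06 FPKM in T1DC and 1.01, 2 and 0.78 FPKM in T1DE, about 37.5, 68.6 and 23.7 reads in the latter and 2.14 to 9.75 in the former. ND lungs held 0.32, 0.06 and 0.36 FPKM in NDC and 0.15, 0.06 and 0.06 FPKM in NDE. In obese mice it was 0.19, 0 and 2.12 FPKM in DIOC and 0.93, 0 and 0.03 FPKM in DIOE. T1DE thus lay above T1DC and NDE without overlap, while DIOC3 and DIOE1 were as high. Only DIOC3, T1DE1 and T1DE2 reached 1 FPKM, so that Cyp1a2 entered the test through these libraries. PM in T1D gave 0.97 (SE 0.36, adjusted p = 0.287 in limma) and T1D minus ND under PM 1.02 (SE 0.36, adjusted p = 0.232 in limma, 0.286% of genes called). The PM effect in T1D exceeded that in ND by 1.16 (adjusted p = 0.806) and that in DIO by 1.27 (adjusted p = 0.726), and neither was called.

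Because Cyp1a2 is a liver gene, it was read against albumin. The liver libraries held 3.43 to 10.7 FPKM of Cyp1a2 per 1000 FPKM of albumin. DIOC3 with 6.64 and DIOE1 with 5.51 lay within that range. T1DE1 had 352, T1DE2 239 and T1DE3 13.1 per 1000 of albumin. Another 6 lung libraries also lay above the liver range, NDE2 at 64.5, T1DC2 at 27, NDC2 at 23, NDE3 at 22.9, T1DC3 at 22.7 and NDE1 at 11.2, all with 0.15 FPKM of Cyp1a2 or less, so that a ratio above that of liver was not particular to T1DE. The part of liver RNA in the lung values of Cyp1a2 was not tested. Cyp1a1 and Cyp1a2 share 4.79% of the 50-base stretches of Cyp1a2, and the part of shared reads in these values was not tested. The lung Cyp1a1 values of T1DE and T1DC overlapped.

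**Figure D3:**
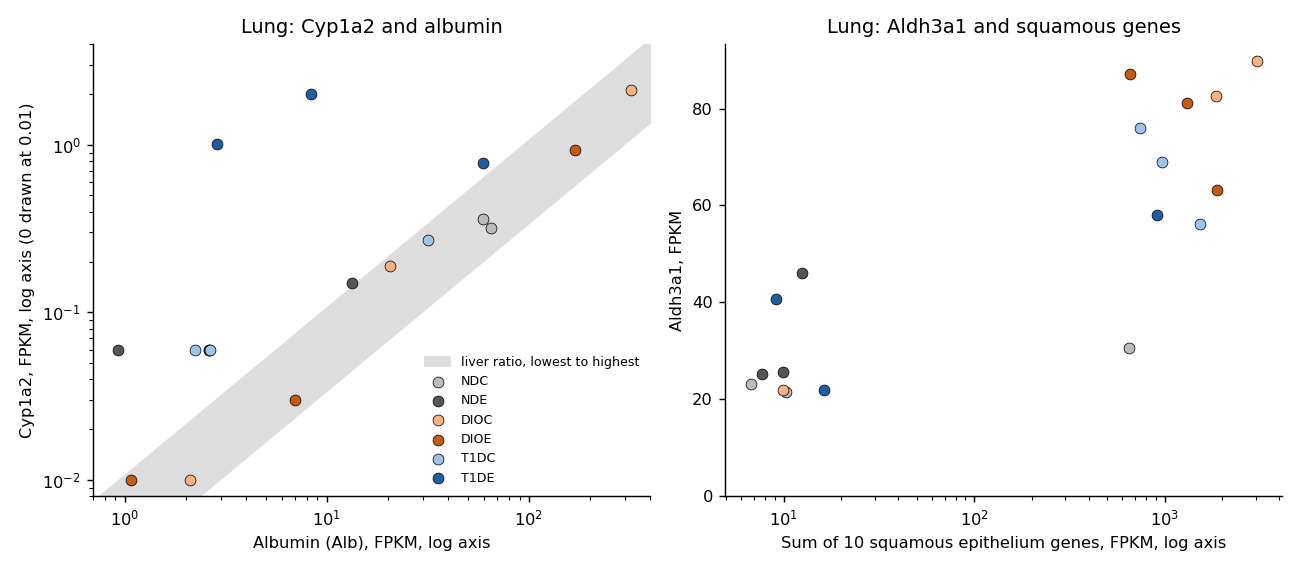
Left, Cyp1a2 against albumin in the 18 lung libraries, both as FPKM on log axes, with the grey band for the lowest to highest ratio in liver. T1DE1 and T1DE2 sat above the band at 1.01 and 2 FPKM, and 6 libraries outside T1DE sat above it at 0.15 FPKM or less. Right, Aldh3a1 as FPKM against the summed FPKM of 10 squamous genes on a log axis, where the 8 libraries of low sum had a median of 24.2 FPKM and the other 10 a median of 72.5 FPKM.

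Aldh3a1, an aldehyde dehydrogenase of cornea and stratified epithelium, was the most abundant member in lung and had the widest range in FPKM. It was 23.17, 30.51 and 21.39 FPKM in NDC and 46.09, 25.59 and 25.26 FPKM in NDE. It was 82.62, 89.90 and 21.87 FPKM in DIOC and 63.09, 81.11 and 87.11 FPKM in DIOE. Diabetic lungs held 56.18, 68.92 and 76.05 FPKM in T1DC and 40.71, 57.95 and 21.88 FPKM in T1DE. All 3 libraries of T1DC lay above all of NDC, and all of DIOE above all of NDE and T1DE.

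None of these differences passed the test over all genes. DIO minus ND was 1.19 over both airs (SE 0.31, adjusted p = 0.106 in limma, 0.193% of genes called), 1.12 in filtered air (adjusted p = 0.381, 0.107% called) and 1.27 under PM (adjusted p = 0.751, 0.0286% called). T1D minus ND was 1.39 in filtered air (adjusted p = 0.258, 0.107% called) and 0.83 over both airs (adjusted p = 0.168). T1D minus DIO under PM was -1.01 (adjusted p = 0.246). DIOC3, at 21.87 FPKM, decided the obese comparison: without it DIO minus ND was 1.76 in filtered air (adjusted p = 0.0241 in limma) and 1.52 over both airs (adjusted p = 0.00199), and both were called. They were called too without both DIOC3 and DIOE1, the lung libraries of highest albumin, at 1.76 (adjusted p = 0.0318) and 1.58 (adjusted p = 0.00378).

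Squamous RNA moved with Aldh3a1. It was low in NDC1, NDC3, the 3 NDE libraries, DIOC3, T1DE1 and T1DE3, where Aldh3a1 spanned 21.39 to 46.09 FPKM, and high in the other 10, where it spanned 30.51 to 89.9 FPKM. With the mean of the muscle and squamous marker scores as a covariate, DIO minus ND over both airs was 0.41 (SE 0.27, adjusted p = 0.49 in limma) and T1D minus ND in filtered air 0.68 (SE 0.33, adjusted p = 0.245). In lung, the 3 genes closest to Aldh3a1 over the 18 libraries were Mall, Perp and Ckmt1, with Pearson r of 0.92, 0.89 and 0.89 on the log2 scale among 9779 genes. Ahr was closest to Elk3, Pik3cb and Klf11 (0.84, 0.79 and 0.78) and Cyp1a1 to Sgsm3, Nus1 and Gch1 (0.88, 0.83 and 0.82). These libraries share composition and depth, and the coefficients are descriptive.

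In the liver each call of a member was in a comparison of T1D. Ahr was higher in T1D than in DIO, in filtered air, under PM and over both, and Tiparp was higher in T1D than in ND in filtered air and over both airs. These 5 were the only calls of members among 16 comparisons in liver, all of state. In their comparisons 5.21 to 18.9% of all genes were called, and those over both airs average the single airs. For PM 0 members were called with limma. At an unadjusted p below 0.05 there were 1 in ND (Ahr), 0 in DIO, 0 in T1D and 2 over the 3 states (Ahr and Tiparp). For a difference of PM effects 0 members were called, where 0 to 0.416% of genes were. The median gene differed too, by 0.16 to 0.35 in the 6 comparisons of T1D as deposited, and median-ratio scaling moved it by -0.17 to -0.39.

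Ahr was 6.76, 5.59 and 5.58 FPKM in DIOC and 10.86, 9.41 and 8.26 FPKM in T1DC. Under PM it was 6.40, 5.73 and 7.26 FPKM in DIOE and 14.24, 10.10 and 11.82 FPKM in T1DE. The 6 diabetic libraries, at 8.26 to 14.24 FPKM, lay above the 6 obese ones at 5.58 to 7.26 FPKM without overlap. T1D minus DIO was 0.59 in filtered air (SE 0.16, adjusted p = 0.022 in limma, 6.6% of genes called), 0.80 under PM (SE 0.16, adjusted p = 0.00112, 18.9% called) and 0.69 over both airs (SE 0.11, adjusted p = 0.000183, 10.6% called). After median-ratio scaling each of the 3 was 0.40, with adjusted p of 0.119, 0.0777 and 0.0125, under the fold of 1.5, and the direction held in all. Leaving out DIOC2, DIOC3 or T1DC1 ended the call in filtered air, at 0.55 (adjusted p = 0.0607), 0.55 (adjusted p = 0.0697) and 0.50 (adjusted p = 0.11), while the calls under PM and over both airs held whichever library was left out. All 3 calls also held without the 3 liver libraries of highest alveolar type 2 RNA.

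Normal-diet livers lay between. Ahr was 6.09, 7.93 and 5.93 FPKM in NDC and 10.75, 7.59 and 11.87 FPKM in NDE, which overlapped. PM in ND gave 0.52 (SE 0.16, adjusted p = 0.618 in limma, 0.00925% of genes called) and PM over the 3 states 0.31 (SE 0.09, adjusted p = 0.236, 0.0278% called). In DIO PM differed by 0.10 (95% interval -0.24 to 0.43, 0% called) and in T1D by 0.31 (-0.03 to 0.64, 0.916% called). T1D minus ND was 0.46 in filtered air (adjusted p = 0.0644, 5.21% called) and 0.35 over both airs (SE 0.11, adjusted p = 0.0196, under the fold of 1.5, 6.85% called). DIO minus ND under PM was -0.55 (adjusted p = 0.0988, 0.999% called), without overlap, and without NDE2 it was -0.73 (adjusted p = 0.0468) and was called.

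Under PM, markers of other liver cells were higher in T1D than in DIO, as Ahr was. The summed level of 3 sinusoidal endothelial genes was 75.8 to 82.94 FPKM in T1DE and 24.17 to 58.44 FPKM in DIOE, and that of 4 Kupffer cell genes 213.44 to 239.34 and 91.55 to 134.43 FPKM. In filtered air the endothelial sums were 62.85 to 79.73 FPKM in T1DC and 60.56 to 65.51 FPKM in DIOC, which overlapped, as the Kupffer sums did. Kupffer sums in ND were 170.05 to 200.68 FPKM in NDC and 95.99 to 176.11 FPKM in NDE, where Ahr averaged 6.65 and 10.07 FPKM. The endothelial sums there were 31.01 to 71.47 and 57.33 to 61.19 FPKM. All 7 of these marker genes were at 1 FPKM or more in every liver library, and their part in the Ahr difference was not tested.

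**Figure D4:**
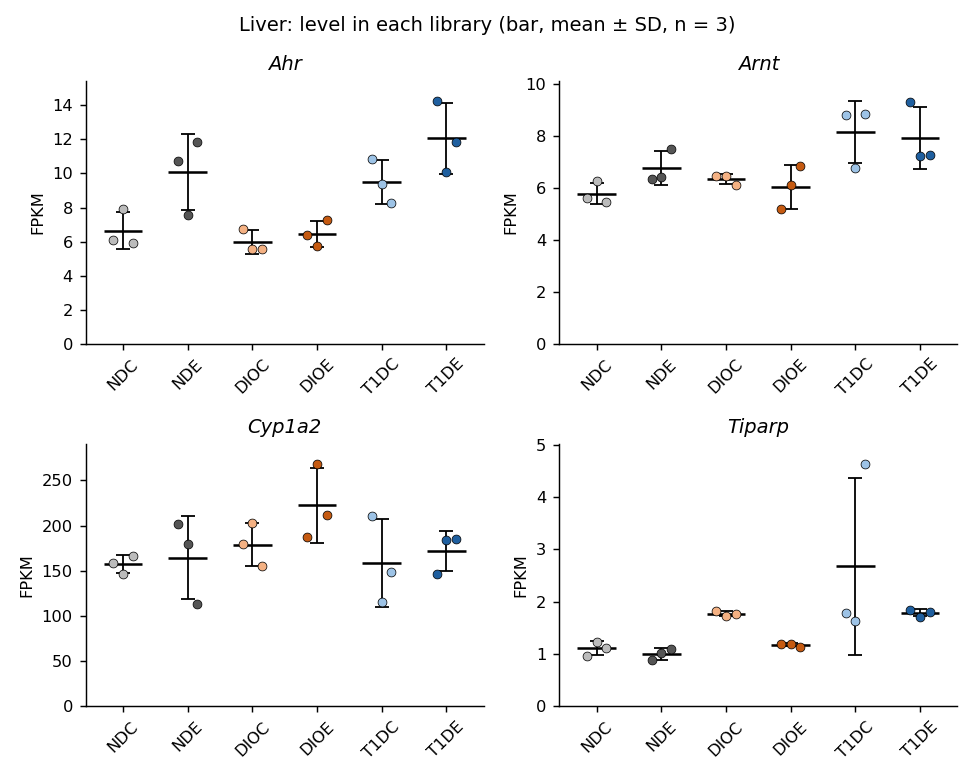
FPKM of the 4 tested genes in liver, each point 1 library, with the mean and SD of 3 libraries a group. Ahr sat at 8.26 to 14.24 FPKM in the diabetic groups and at 5.58 to 7.26 FPKM in the obese ones, and Tiparp had 1 library at 4.63 FPKM in T1DC.

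Arnt, the partner, followed a like but smaller pattern. It was 5.62, 6.26 and 5.48 FPKM in NDC, 6.45, 6.48 and 6.12 FPKM in DIOC and 8.83, 6.77 and 8.85 FPKM in T1DC. Under PM it was 6.35, 6.41 and 7.52 FPKM in NDE, 5.18, 6.12 and 6.86 FPKM in DIOE and 9.30, 7.23 and 7.26 FPKM in T1DE. In filtered air the diabetic libraries lay above the others, and under PM they overlapped those of NDE. T1D minus ND was 0.31 over both airs (adjusted p = 0.00923 in limma) and T1D minus DIO 0.32 (adjusted p = 0.0047), neither at the fold of 1.5. The ratio of Ahr to Arnt in single liver libraries ran from 0.863 in DIOC2 to 1.69 in NDE1.

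Tiparp was 0.97, 1.24 and 1.12 FPKM in NDC and 1.78, 1.63 and 4.63 FPKM in T1DC. Under PM it was 0.88, 1.02 and 1.10 FPKM in NDE and 1.85, 1.71 and 1.81 FPKM in T1DE. The diabetic libraries lay above the ND libraries in both airs. T1D minus ND was 0.71 in filtered air (SE 0.19, adjusted p = 0.0267 in limma, 5.21% of genes called). Over both airs it was 0.60 (SE 0.14, adjusted p = 0.00332, 6.85% called) and under PM 0.48 (adjusted p = 0.0662, 9.5% called). T1DC3, at 4.63 FPKM, carried much of this: without it the differences were 0.36 in filtered air (adjusted p = 0.0308) and 0.42 over both airs (adjusted p = 0.000192), below the fold of 1.5. Leaving out NDC1 ended both calls too, at 0.66 (adjusted p = 0.0903) and 0.57 (adjusted p = 0.00948), leaving out NDC3 that in filtered air, at 0.72 (adjusted p = 0.084), and leaving out NDE1 that over both airs, at 0.58 (adjusted p = 0.00914). Without the 3 liver libraries of highest alveolar type 2 RNA the differences were 0.62 (adjusted p = 0.445) and 0.55 (adjusted p = 0.0548), and neither was called. After median-ratio scaling they were 0.58 (adjusted p = 0.0684) and 0.44 (adjusted p = 0.0228, under the fold of 1.5), and after quantile scaling 0.54 (adjusted p = 0.0937) and 0.37 (adjusted p = 0.0598), so that both calls ended.

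Obese livers held 1.82, 1.73 and 1.77 FPKM of Tiparp in DIOC and 1.20, 1.20 and 1.14 FPKM in DIOE. All 3 libraries of DIOE lay below all 3 of DIOC, a difference of -0.35 (SE 0.19, adjusted p = 0.415 in limma) that was not called. Over the 3 states PM gave -0.24 (adjusted p = 0.431). The median of all genes was itself -0.11 for PM in DIO.

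Cyp1a2, an enzyme of hepatocytes around the central vein, was the one abundant target in liver. It was 158.81, 146.86 and 166.42 FPKM in NDC and 201.54, 179.87 and 112.92 FPKM in NDE. It was 179.23, 203.26 and 154.94 FPKM in DIOC and 187.85, 268.30 and 211.60 FPKM in DIOE, and 211.22, 115.93 and 148.62 FPKM in T1DC and 146.34, 183.72 and 185.58 FPKM in T1DE. Filtered air and PM overlapped in every state, and PM over the 3 states differed by 0.16 (95% interval -0.11 to 0.43, adjusted p = 0.682 in limma). DIOE lay above T1DE without overlap, with T1D minus DIO under PM at -0.36 (adjusted p = 0.157). After median-ratio scaling that difference was -0.81 (adjusted p = 0.0189 in limma), and over both airs -0.62 (adjusted p = 0.00874), both called lower. Under that scaling Ahr in T1D minus DIO and Tiparp in T1D minus ND were 0.40 and 0.44 over both airs, not called. After quantile scaling 0 members were called for state.

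**Figure D5:**
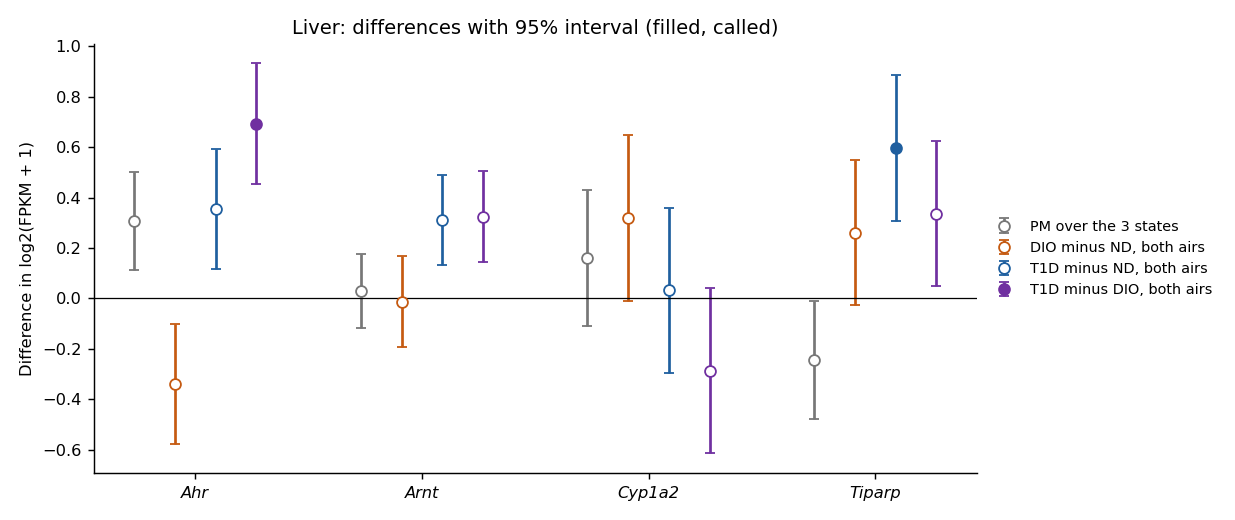
Differences in log2(FPKM + 1) of the 4 tested genes in liver, with 95% intervals from limma and filled points for called genes. The called points are Ahr in T1D minus DIO at 0.69 and Tiparp in T1D minus ND at 0.60, while Cyp1a2 in T1D minus DIO sat at -0.29.

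Cyp1a1 in liver stayed below 1 FPKM and was not among the tested genes. It was 0.59, 0.38 and 0.77 FPKM in T1DC and 0.25, 0.40 and 0.62 FPKM in T1DE. Obese livers held 0.08, 0.08 and 0.17 FPKM in DIOC and 0.15, 0.04 and 0.16 FPKM in DIOE, and ND livers 0.16, 0.33 and 0.26 FPKM in NDC and 0.19, 0.14 and 0.37 FPKM in NDE. All 6 diabetic libraries lay above all 6 obese ones. A fit without the filter gave 0.42 for T1D minus DIO over both airs (SE 0.07, adjusted p = 0.000582 in limma) and 0.27 for T1D minus ND (SE 0.07, adjusted p = 0.0132), both under the fold of 1.5 on this scale. Levels this low lie where diabetic livers other than T1DC2 stood apart, with fewer genes at 0 and a higher median gene. The part of this in the differences was not tested.

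The remaining members were scarce in liver. Cyp1b1 lay at 0.17 to 0.92 FPKM in T1D, 0.14 to 0.27 FPKM in DIO and 0.23 to 0.45 FPKM in ND, with 0.32 for T1D minus DIO over both airs in the fit without the filter (adjusted p = 0.0256, under the fold of 1.5). Ahrr did not pass 0.11 FPKM and Aldh3a1 did not pass 0.11 FPKM, the latter listed at 0 in some libraries of each state. Over the 18 liver libraries Ahr was most like Pde4dip, Kif1bp and Cdc42ep4, with Pearson r of 0.90, 0.89 and 0.87 among 6316 genes, a description of libraries that differ in state.

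Other genes bound to the pathway were read as lists, chosen with earlier results of these data known. Of 21 genes known as targets or responders of the receptor in mouse or human cells, many of which answer to other signals too, 18 were tested in liver. In T1D minus ND 9 were higher and 0 lower in filtered air (5.21% of all genes called), 11 higher and 1 lower under PM (9.5%), and 12 higher and 1 lower over both airs (6.85%). In T1D minus DIO the counts were 7 and 1 (6.6%), 10 and 2 (18.9%), and 10 and 1 (10.6%). Without T1DC1 those of filtered air were 4 and 0 against ND and 2 and 1 against DIO, and without DIOC1 the latter was 4 and 1. Their median difference was 0.86, 0.95 and 0.88 against ND and 0.53, 1.10 and 0.80 against DIO, beside 0.16 to 0.35 for all genes tested. After median-ratio scaling 8 were higher and 1 lower in T1D minus ND over both airs and 7 and 1 in T1D minus DIO, with medians of 0.64 and 0.48. In DIO minus ND over both airs 3 were higher (Igfbp1, Lcn2 and Fgf21, 2.22% of genes called), and in filtered air 1, Igfbp1 (1.51% called). These rested on single libraries: without DIOC1, DIOE1, NDC1, NDC2, NDE1 or NDE2 the 3 became 1, and without DIOC1, DIOC2, NDC2 or NDC3 that of Igfbp1 in filtered air ended.

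Gsta1, a glutathione transferase, was at 3.84 to 87.98 FPKM in T1D, 0 to 3.49 FPKM in ND and 0.39 to 3.48 FPKM in DIO, with T1D minus ND at 4.28 over both airs (SE 0.48, adjusted p = 1.56e-05 in limma). Its reads may be divided with near-identical alpha class paralogs. Nqo1, the quinone reductase, spanned 4.59 to 18.28 FPKM in T1D, 2.28 to 4.31 FPKM in ND and 1.44 to 3.52 FPKM in DIO, and rose by 1.67 (SE 0.23, adjusted p = 0.00011). Xdh, xanthine dehydrogenase, spanned 37.61 to 54.36 FPKM in T1D and at most 30.18 FPKM in ND and 23.64 FPKM in DIO, with T1D minus DIO at 1.16 (SE 0.10, adjusted p = 7.38e-07). In these 3 genes no diabetic library overlapped another state. Genes of the list were named by smallest p, and the share of all genes without such overlap is not given here.

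Cd36, a fatty acid carrier, was also higher in T1D, at 31.90 to 75.80 FPKM against 8.89 to 23.93 FPKM in ND and 10.51 to 21.66 FPKM in DIO. Fgf21, a fasting hormone of the liver, was at 2.72 to 5.34 FPKM in T1D, against 11.23 to 44.04 FPKM in DIO. ND, at 4.51 to 24.69 FPKM, overlapped T1D. Over both airs T1D minus DIO was -2.29 (SE 0.29, adjusted p = 3.14e-05 in limma) and T1D minus ND -1.24 (SE 0.29, adjusted p = 0.00415). The directions of these genes held under both scalings.

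PM in diabetic liver called 2 genes of the list (0.916% of all genes called), beside 0 in ND (0.00925%) and 0 in DIO (0%). Nfe2l2, which encodes the antioxidant regulator NRF2, rose by 0.78 (SE 0.15, adjusted p = 0.017 in limma) from a mean of 25.8 to 44.8 FPKM. Igfbp1, an insulin-repressed binding protein of IGF1, fell by 2.08 (SE 0.46, adjusted p = 0.0288), from 194.36, 315.07 and 1106.37 FPKM in T1DC to 129.27, 63.51 and 106.00 FPKM in T1DE. T1DC3, the library that was also high in Tiparp, carried much of it: without it Igfbp1 differed by -1.36 (adjusted p = 0.0514) and Nfe2l2 by 0.68 (adjusted p = 0.0522). Without T1DE1 or T1DE3 both calls ended too, and without T1DE2 that of Igfbp1, at -1.79 to -2.30 for Igfbp1 (adjusted p = 0.0733 to 0.138) and 0.75 and 0.78 for Nfe2l2 (adjusted p = 0.0885 and 0.062). For this list 0 genes were called for a difference of PM effects with limma, with 4 at an unadjusted p below 0.05 for T1D minus ND and 3 for T1D minus DIO, so that the response in T1D was not shown to differ from that in ND or DIO. In lung 0 of 19 tested genes of the list were called in any of 16 comparisons with limma, and 0 to 5 a comparison had an unadjusted p below 0.05.

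Few of the receptor's chaperones and coactivators were called. Of 11, 10 were tested in lung, where limma called 0 in 16 comparisons with 0 to 4 a comparison at an unadjusted p below 0.05, and 10 in liver, and Hsp90aa1 alone was called, higher in T1D than DIO under PM at 0.77 (SE 0.22, adjusted p = 0.00835 in limma), where 18.9% of all genes were called. It was 0.32 after median-ratio scaling and 0.54 without DIOE3, not called in either. In liver over both airs their median in T1D minus DIO was 0.24, beside 0.26 for all genes tested, so that as a list they did not stand above the rest. All 10 of the 10 lay above 0, and 8 had an unadjusted p below 0.05. The shares of all genes for these 2 counts are not given here. Of 5 genes that supply P450 enzymes with electrons and haem, Cyb5r3 alone was called in liver. It was called in T1D minus DIO in filtered air at 0.71 (adjusted p = 0.0215 in limma), where 6.6% of all genes were called. The call ended after median-ratio scaling, at 0.50, and without DIOC1, DIOC3, T1DC1 or T1DC2. Of the kynurenine pathway, whose products bind the receptor, 5 genes were tested in each tissue. Kmo was lower in diabetic than in normal-diet lung over both airs, at 0.95 to 3.64 against 3.01 to 5.70 FPKM. The difference was -0.95 (SE 0.18, adjusted p = 0.0246 in limma), where 0.558% of all genes were called. That call ended without NDC2, NDC3, NDE1, NDE3 or T1DE1, at -0.87 to -0.96 (adjusted p = 0.0509 to 0.0736). In liver Kmo in T1D minus ND under PM was 0.59 (adjusted p = 0.0151 in limma), where 9.5% of all genes were called. Tdo2 in T1D minus DIO under PM was 0.70 (adjusted p = 0.0144 in limma), where 18.9% were. Both calls ended after median-ratio scaling, at 0.29 and 0.25. That of Kmo ended without NDE3 or T1DE2 as well, and that of Tdo2 without DIOE1.

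Genes of the circadian clock, named after their values were seen, moved with state in both tissues. Of 10 tested in each, 3 were higher (Cry1, Arntl and Npas2) and 4 lower (Nr1d1, Dbp, Nr1d2 and Per3) in lung over both airs, in DIO minus ND (0.193% of all genes called) as in T1D minus ND (0.558%). In liver over both airs T1D minus ND gave 3 higher (Arntl, Cry1 and Npas2) and 2 lower (Nr1d1 and Dbp) beside 6.85% of all genes, and T1D minus DIO 4 higher (Per2, Dbp, Per3 and Per1) beside 10.6%. Dbp, a clock-controlled transcription factor, differed by 1.84 in T1D minus DIO in liver, the comparison in which Ahr was called. The directions held under both scalings, while the calls of Npas2 in T1D minus ND and of Per1 in T1D minus DIO in liver ended under both and that of Per3 in T1D minus DIO under quantile scaling. Clock genes differed in obese liver too, where DIO minus ND over both airs gave 3 higher and 5 lower beside 2.22% of all genes. Dbp averaged 42.4 FPKM in ND liver, 9.16 FPKM in T1D and 1.14 FPKM in DIO, with DIO minus ND at -4.33 and T1D minus ND at -2.49. The part of the clock in the differences between states was not tested.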

How the data were processed

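Reads from lung and liver RNA were sequenced by the authors on BGISEQ-500, cleaned with SOAPnuke, aligned with Bowtie2 to GRCm38 and quantified per gene by RSEM. The deposited values are FPKM written to 2 decimals. Tool versions, strandedness and annotation are not stated. The authors tested with DEGseq. From the FPKM, log2(FPKM + 1) was fitted by limma 3.58.1 in R 4.3.3 (eBayes with trend), with 1 model of 6 group means a tissue. A gene needed 1 FPKM in 3 or more libraries of a tissue to be tested, which left 13973 in lung and 10806 in liver. The script was tested on simulated data. Tests were two-sided, with 16 comparisons a tissue. Lung was set against liver in 1 model of 12 group means. Read depth was inferred from the steps between FPKM values of genes with 1 transcript, and bears on counting error only. Alternatives were a pseudocount of 0.1, no filter, 2 scalings, separate fits, a replicate block, a marker covariate, no fold threshold and each library left out. The fits without libraries of highest albumin RNA in lung or alveolar type 2 RNA in liver and the lists with each library left out were chosen after seeing the data. The members and lists were chosen with earlier results of these data known. All 8 members are named, with up to 4 called genes of smallest p per list and comparison and the 3 genes most correlated with Ahr, Cyp1a1 and Aldh3a1. Sequences and coordinates came from RefSeq. Figures were drawn with matplotlib.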

Additional observations from a re-analysis of the deposited data

How the results depend on the processing

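Among lung members, 0 were called for PM, state or their difference under the pseudocount of 0.1, no filter, both scalings, separate fits, the replicate block, no fold threshold and the marker covariate. For state, 2 were called without the 2 lung libraries of highest albumin, and 0 to 2 when 1 library was left out. In liver the 5 calls of state became 2 after median-ratio scaling, both of Cyp1a2, 0 after quantile scaling, 3 with only the compared groups fitted, 11 with no fold threshold and 3 without the 3 libraries of highest alveolar type 2 RNA, and ranged from 3 to 6 when 1 library was left out. The cause was not tested, apart from the libraries named in the report. They were 6 with a pseudocount of 0.1 and 5 with no filter. PM and the difference of PM effects in liver gave 0 members under all alternatives. Of 176 differences of single members, 5 were called and 0 turned direction with a call under the alternatives, while 176 of the 4611 values under alternatives, called in neither fit, changed sign. With the replicate number as a block the counts were 5 for state in liver and 0 for the rest, and the numbers did not pair the libraries, since 6 of 18 in lung and 7 of 18 in liver deviated most like a library of their own number. Of the 7 members called between lung and liver, 5 were called after median-ratio and after quantile scaling. With 3 libraries a group, and few reads of Cyp1a2 in lung and Cyp1a1 in liver, small differences were not detectable.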
